A study of Homo sapiens with 4 samples.

Results

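The baseline chromatin accessibility of SEM cells was described from the sgNT control libraries alone, which are 2 of the 4 samples of the series and were picked by their labels, not by their values. SEM is an established human line of B cell precursor acute lymphoblastic leukemia whose MLL gene (KMT2A) is rearranged and fused to AFF1. The cells of all 4 samples carried dCas9-KRAB with a blasticidin marker, a catalytically dead Cas9 joined to a repressor domain, and the sgNT cells received a guide with no target in the genome. The other 2 samples carried sgFLT3-DE-1, a guide against a distal FLT3 element. Their counts entered no value below, although the peaks themselves were called over both guides. Both sgNT libraries therefore show a line that already holds the repressor and a guide vector, and not untouched SEM cells. The labels do not say whether they came from separate cultures, so the spread between them may be technical, and with 2 libraries of 1 group no test was made.

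In ATAC-seq a transposase cuts accessible DNA, and the cut fragments are counted within peaks. Promoters of active genes are usually free of nucleosomes and accessible in many cell types, whereas distal enhancers are more often accessible in few lineages, where they are bound by the transcription factors of that lineage. In B cell precursors these factors include EBF1, PAX5, TCF3 and IKZF1, and in MLL-rearranged leukemia the fusion protein is known to hold genes such as MEIS1, the HOXA genes, CDK6, MEF2C and FLT3 in an active state. A level in bulk cells averages over all cells, so that fewer accessible cells and less access per cell cannot be told apart.

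The authors deposited raw counts for 139872 consensus peaks on hg19, which summed to 3321429 counts in sgNT library 1 and 2683477 in library 2. The median peak was 179 bp long and held 10 and 9 counts. Each count was scaled to the total of its library and is given as CPM, the usual depth-scaled unit, and the level of a peak is the mean of both libraries. Over 3 counts in each library were found at 103326 peaks (73.9%), and 467 peaks were at 0 in both. Across peaks, which are no independent replicates, the log2 CPM of the libraries correlated with a Pearson r of 0.896. Of the top 10% of peaks in library 1, 85.9% were also in the top 10% of library 2, and 86.7% the other way round. In the top 10% by mean level, 93.8% of peaks lay within 1.5-fold between the libraries, against 43.8% in the lowest 10%, where the medians were 2 and 1 counts.

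Sequences are shown first for the strongest peak in each of 3 clusters of distal peaks at or near known MLL target genes, since distal clusters at these genes are described below. Each run is the central 200 bases of a peak on the plus strand of GRCh37, and capitals mark letters that known factors prefer (here RUNX, C/EBP, E-box and NFY letters, spelled out with their shares further down). The PAN3 run lies at chr13:28842983-28843182, in an intron of PAN3, and its RUNX letters stand at bases 5 to 11, with C/EBP letters at 147 to 154 and E-box letters at 172 to 177. The MEF2C run lies at chr5:87970317-87970516, outside coding genes and within 1 kb of the start of the noncoding gene MEF2C-AS2, and its GC content was 75%. The CDK6 run lies at chr7:92384466-92384665 in a CDK6 intron.
PAN3 intron: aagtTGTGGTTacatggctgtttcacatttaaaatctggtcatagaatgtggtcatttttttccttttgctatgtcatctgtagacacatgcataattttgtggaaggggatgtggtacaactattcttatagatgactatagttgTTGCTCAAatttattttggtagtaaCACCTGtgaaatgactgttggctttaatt
MEF2C: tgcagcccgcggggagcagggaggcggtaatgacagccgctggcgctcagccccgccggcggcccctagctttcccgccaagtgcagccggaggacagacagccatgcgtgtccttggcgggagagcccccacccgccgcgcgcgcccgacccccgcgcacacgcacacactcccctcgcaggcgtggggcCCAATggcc
CDK6: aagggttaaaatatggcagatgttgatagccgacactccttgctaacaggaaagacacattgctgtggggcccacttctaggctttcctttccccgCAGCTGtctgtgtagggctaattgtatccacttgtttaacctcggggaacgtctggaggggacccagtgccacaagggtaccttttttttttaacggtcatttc

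Promoter sequences are shown beside them for 2 strong promoters and for HOXA9, a weak one, to show the base content of promoters. Each run holds up to 150 bases before the most upstream annotated exon inside the peak, read in the direction of the gene. FLT3 (chr13:28674730-28674879, minus strand) had a GC content of 67.3% and 12 CG steps, and CPEB2 (chr4:15003955-15004104, plus strand) had 74.7% and 25, with SP/KLF letters at bases 14 to 21 and CTCF letters at 94 to 102. The 90 bases of HOXA9 inside its peak (chr7:27205157-27205246, minus strand) had 64.4% and 10, with NFY letters in capitals. For comparison, the PAN3 run above had a GC content of 34% and 0 CG steps.
FLT3: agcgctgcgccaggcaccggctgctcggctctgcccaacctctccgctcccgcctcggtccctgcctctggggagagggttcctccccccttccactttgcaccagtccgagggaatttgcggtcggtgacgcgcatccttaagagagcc
CPEB2: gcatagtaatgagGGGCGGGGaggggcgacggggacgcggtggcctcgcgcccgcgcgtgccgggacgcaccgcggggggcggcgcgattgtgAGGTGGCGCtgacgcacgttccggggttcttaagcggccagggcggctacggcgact
HOXA9: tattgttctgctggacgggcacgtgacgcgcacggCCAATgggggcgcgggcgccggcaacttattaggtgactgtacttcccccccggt

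Promoters were few but strong. A promoter peak was one at most 1 kb from the start of a protein-coding transcript, and all others were called distal. The 21028 promoter peaks made up 15.03% of peaks and held 36.7% of the counts of library 1 (95% Wilson interval 36.7 to 36.8%) and 36.1% of library 2 (36.1 to 36.2%), intervals that cover counting error only. Their median level was 8.73 and 9.69 CPM in the libraries, against 2.71 and 2.98 CPM at the 118844 distal peaks. Promoter peaks were longer, at a median of 260 bp against 171 bp, and per kb of peak the medians were 35.8 and 17.0 CPM, so the ratio fell from 3.23 to 2.11 once length was taken into account. Median GC content was 65.5% at promoters and 45.5% at distal peaks, and the median CG steps per 100 bases were 8 and 1.

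A peak was called strong when its mean CPM was in the top 10% of all peaks, which set the limit at 16.7 CPM, or about 55.3 counts in library 1 and 44.7 in library 2. Of the promoter peaks 32.1% were strong, against 6.09% of the distal ones. Because distal peaks were so many, they still made up 7243 of the 13992 strong peaks. The share of strong peaks changed little with distance beyond the promoter window, from 5.70% at 1 to 10 kb to 6.49% at 50 to 200 kb and 6.25% at over 200 kb from a coding start. Distal peaks within 1 kb of the start of a noncoding gene were strong in 12.1% of cases (643 of 5313). Within coding genes, 53233 distal peaks lay in introns and 3336 in exons, and 62275 lay outside, with median levels of 2.88, 3.03 and 2.73 CPM.

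**Figure D1:**
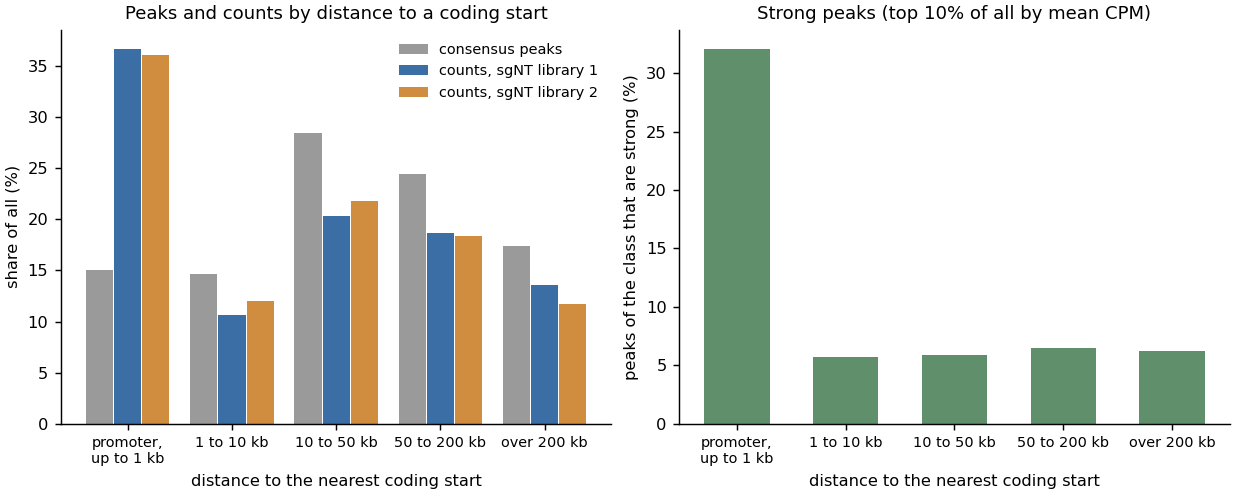
Left, share of consensus peaks (grey) and of counts in sgNT library 1 (blue) and 2 (orange) in each class of distance to the nearest coding start, in percent. Right, share of the peaks of each class that were strong. Promoters held 15.03% of peaks but 36.7 and 36.1% of counts, and the strong share stood at 32.1% there and between 5.70 and 6.49% in the distal classes.

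The strongest promoter peak by counts was that of EEF1A1, an elongation factor of translation, with 618 CPM in library 1 but 216 in library 2. It was the widest gap between the libraries among the 8 strongest promoter peaks, and what lay behind it was not tested. GSK3B, a kinase of WNT and insulin signalling, followed with 348 and 295 CPM over a peak of 1834 bp, the longest of all. Next came ZBTB20, a zinc finger repressor (352 and 264 CPM), and GOLIM4, a Golgi membrane protein (288 and 236 CPM). EBAG9 (285 and 211 CPM), the glycogen branching enzyme GBE1 (248 and 196 CPM), DCUN1D4, which acts in protein neddylation (241 and 197 CPM), and the tyrosine kinase FER (242 and 179 CPM) completed the 8. In each of them library 1 was the higher. None of the 8 is in a lineage list, and 4 lie on chromosome 3.

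Over 19756 coding genes outside the Y chromosome, 6685 had a strong promoter peak (33.8%), 5501 were open, with over 3 counts in each library, 436 were faint, and 7134 had no promoter peak (36.1%). Part of these 7134 could not be judged. After the levels had been seen, 97 stretches of at least 100 kb were found that held no consensus peak although at least 3 coding genes with a GC content of 60% or more at their start lie in each. These stretches covered 67.5 Mb and 1145 coding genes, 1131 of which had no promoter peak. The stretch with the most such starts, chr6:28459477-32590362, holds the MHC region with 142 coding genes, and 17 stretches with 320 genes lie on the X chromosome. Genes that every cell uses, such as TUBB and PGK1, lie in them, so a missing peak there does not show closed chromatin. The submitters' processing notes name GRCh37.p13, and the supplementary notes of the study name uniquely mapped reads. Whether these settings left the stretches empty was not tested. Outside the stretches 32.3% of genes had no promoter peak.

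A missing promoter peak went with the base content of the start. Outside these stretches 77.5% of the 622 genes with a GC content under 40% at their start had none, against 66.0% at 40 to 50%, 45.5% at 50 to 60%, 24.9% at 60 to 70%, 19.6% at 70 to 80% and 24.0% at 80% or more. The share of strong promoters was 5.79% in the first of these classes, 45.8% at 70 to 80% and 33.8% at 80% or more. The counts of each list below stand beside these figures.

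All 26 known MLL fusion targets outside the HOX clusters had a promoter peak, although 1 lost it in a window of 500 bp. Of these genes 21 were strong (80.8%, against 33.8% of all coding genes) and 5 open, with a median of 31.1 CPM, against 17.8 CPM over all coding genes with a promoter peak, and per kb of peak of 75.2 against 44.4 CPM. FLT3, a receptor tyrosine kinase of early progenitors, stood highest with 164 and 184 CPM (174 ± 14.1, SD, n = 2) over a peak of 877 bp that spans its start, chr13:28674277-28675153. Among all coding genes its promoter level had rank 21 by CPM and rank 226 per kb of peak. CPEB2, a regulator of mRNA translation, had 153 and 130 CPM over 1318 bp, which per kb was 107 CPM against 199 CPM for FLT3. SUPT3H (59.9 and 66.0 CPM) and the apoptosis inhibitor BCL2 (52.4 and 62.2 CPM) came next.

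Among the strong fusion targets were further regulators known in this leukemia. The homeodomain cofactor MEIS1 had 31.3 and 40.2 CPM. MEF2C, a MADS-box factor, had 43.96 and 42.1 CPM at an alternative start and 30.0 CPM at its canonical one. For the core binding factor RUNX1 these values were 31.0 and 38.0 CPM and 26.8 CPM. The kinase CDK6, a regulator of the G1 phase, had 33.1 and 32.8 CPM at an alternative start and 18.5 CPM at its canonical one. LMO2, an adaptor of stem cell complexes, reached 26.5 and 31.3 CPM at an alternative start but 2.35 CPM at its canonical one. The lowest open targets were RUNX2 (6.92 and 10.1 CPM) and TAPT1 (9.33 and 11.6 CPM). The values of MEIS1, CDK6 and LMO2 are named after they had been seen.

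No HOX gene had a strong promoter peak, against 33.8% of all coding genes that did. Of 39 HOX genes 10 were open, 3 faint and 26 without a promoter peak. The share without one was 36.4% in the HOXA cluster, close to the 36.1% of all coding genes. It was 80% in HOXB, 66.7% in HOXC and 88.9% in HOXD. In the HOXA cluster, the one most tied to this leukemia, HOXA13 had 12.3 and 13.4 CPM, at one end of the cluster. HOXA9, a homeodomain factor on which MLL-rearranged cells depend, had 3.91 and 5.96 CPM over a peak of 111 bp, which is 13 and 16 counts. HOXA7 had 4.82 and 8.20 CPM at an alternative start and no peak at its canonical one. HOXA3 had 2.71 and 4.47 CPM, HOXA10 3.61 and 2.61 CPM and HOXA11 1.204 and 3.35 CPM. HOXA2, HOXA4, HOXA5 and HOXA6 had no promoter peak. Per kb of peak HOXA9 stood at 44.5 CPM, next to 44.4 CPM for the median coding gene with a peak, whereas the 7 HOXA genes with a peak had a median of 30.3 CPM. The counts behind these values were few.

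In the other clusters most genes had no promoter peak. HOXB5 was open with 2.71 and 5.22 CPM and HOXB7 faint with 1.81 and 0.745 CPM, whereas HOXB1, HOXB2, HOXB3, HOXB4, HOXB6, HOXB8, HOXB9 and HOXB13 had none. In the HOXC cluster HOXC4 had 9.63 and 14.9 CPM at an alternative start and 8.24 CPM at its canonical one. HOXC6 and HOXC9 shared a faint peak of 0.903 and 5.59 CPM that was not at their canonical starts. HOXC5, HOXC8, HOXC10, HOXC11, HOXC12 and HOXC13 had none. In the HOXD cluster only HOXD13 had a promoter peak (4.22 and 4.10 CPM), and HOXD1, HOXD3, HOXD4, HOXD8, HOXD9, HOXD10, HOXD11 and HOXD12 had none. A distal peak of 33.5 CPM lay nearest to HOXD12, and it became a strong promoter peak when the window was widened to 2 kb. None of these clusters lies in a stretch without peaks.

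Genes of the fusion itself and its complex were mostly accessible. Of 17 such genes 9 were strong (52.9%, against 33.8% of all coding genes) and 7 open. The remaining one, KMT2A itself, lies in a stretch without peaks and was not measured. AFF1, the fusion partner, stood highest with 84.6 and 85.0 CPM, at an alternative start, and had 37.4 CPM at its canonical start. ASH2L, a subunit of the histone methyltransferase complexes, had 68.6 and 63.4 CPM, the elongation partner MLLT10 63.2 and 65.6 CPM, and PSIP1, which tethers menin to chromatin, 65.6 and 58.9 CPM. MLLT6, another fusion partner, had 3.61 and 4.47 CPM.

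B-lineage transcription factors were accessible in nearly all cases. Of 20 factors 12 were strong (60%, against 33.8% of all coding genes) and 7 open. Only SPIB had no promoter peak (5%, against 36.1%). The median of those with a peak was 17.9 CPM, close to 17.8 CPM over all coding genes with a promoter peak. Per kb of peak it was 61.4 against 44.4 CPM. IKZF2, an Ikaros family member, had the highest level with 101.2 and 79.0 CPM, followed by SOX4, a factor of early B cell survival, with 62.9 and 57.8 CPM and the octamer coactivator POU2AF1 with 53.3 and 49.9 CPM. ETS1 had 42.2 and 41.4 CPM at an alternative start and no peak at its canonical one. The master regulators EBF1 (26.5 and 24.6 CPM) and PAX5 (13.2 and 23.1 CPM) were strong too, PAX5 only just and at an alternative start, and its libraries differed. At its canonical start PAX5 was open with 7.78 CPM. The lowest open members were IKZF3 (3.31 and 1.86 CPM) and POU2F2 (4.82 and 5.59 CPM). Of the 12 strong factors 5 remained within the top 5% of peaks, and 9 of this list were strong at canonical starts.

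**Figure D2:**
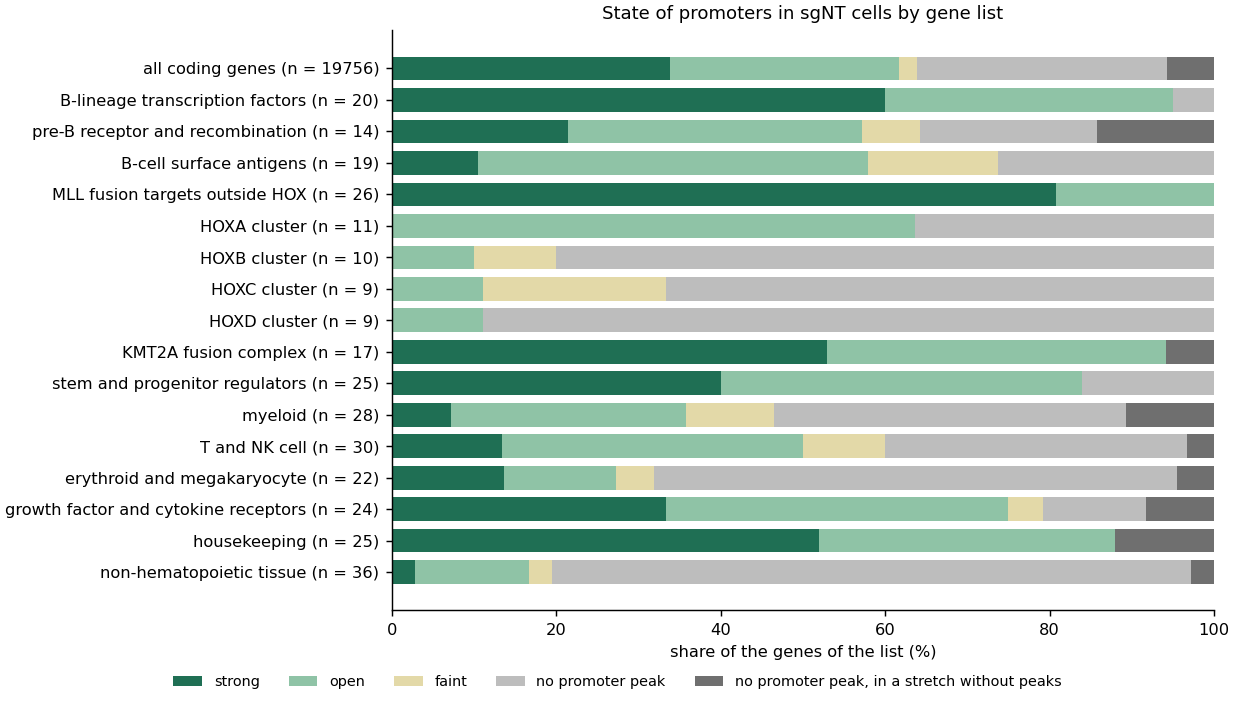
Share of the genes of each list, in percent, whose promoter was strong, open, faint or without a peak, with genes inside stretches without peaks in dark grey; n is the number of genes found. Of the MLL fusion targets 80.8% were strong and none lacked a peak, against 33.8% and 36.1% over all coding genes, and of the non-hematopoietic genes 80.6% lacked one.

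Fewer effector genes of the B lineage had strong promoters. Among 14 genes of the pre-B receptor and of recombination 3 were strong, 5 open, 1 faint and 5 without a promoter peak, 2 of them (CD79A and BTK) in stretches without peaks. These shares were 21.4% strong and 35.7% without a peak, against 33.8% and 36.1% of all coding genes. PIK3AP1, an adaptor of B cell PI3K signalling, had 44.3 and 54.03 CPM, and the kinase LYN 17.8 and 16.4 CPM. RAG1, the recombinase, was counted as strong with 34.9 and 34.3 CPM, but the peak lies at an annotated upstream start that it shares with TRAF6, and its canonical start had none. VPREB1 (11.7 and 19.0 CPM) and IGLL1 (6.92 and 7.08 CPM), which form the surrogate light chain, and DNTT (5.42 and 5.96 CPM), which adds untemplated bases during recombination, were open. BLNK and VPREB3 had no promoter peak outside the stretches.

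Surface antigens of B cells were mostly open or without a peak. Of 19 genes 2 were strong, 9 open, 3 faint and 5 (CD27, CR2, FCER2, MME and TNFRSF13B) without a promoter peak. That is 10.5% strong and 26.3% without a peak, against 33.8% and 36.1% of all coding genes. CD74, the invariant chain of antigen presentation, had 30.4 and 31.7 CPM and CD72, a coreceptor, 24.7 and 27.9 CPM. CD34, a progenitor antigen, followed just under the limit with 17.2 and 15.3 CPM at an alternative start, and CD81 with 12.0 and 16.4 CPM, also at an alternative start. At canonical starts CD81 had 4.64 CPM and CD34 no peak. The lowest open members were CD40 (2.41 and 2.98 CPM) and CD9 (4.22 and 2.236 CPM). MME, which encodes CD10 and is often absent from MLL-rearranged leukemia, had no promoter peak, although 17 distal peaks lay nearest to its start, the highest with 51.7 CPM.

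The marker lists were set against each other as a check of the label. Of 9 B-lineage markers 7 had a promoter peak, 3 of them strong, and their levels summed to 102 and 120 CPM in the libraries. Of these sums RAG1, counted as strong, gave 34.9 and 34.3 CPM from the upstream peak it shares with TRAF6. Its canonical start had no peak. With that peak left out, the sums lie close to those of the T and NK cell markers given next. They then separate these lineages little. PAX5 was strong at an alternative start only, with 7.78 CPM at its canonical one, as GATA3 was among the T and NK cell markers. At canonical starts EBF1 alone of the B-lineage markers was strong. BLNK and CD79A had no promoter peak, CD79A in a stretch without peaks. Of 9 T and NK cell markers 5 had one, with sums of 65.3 and 76.4 CPM, and of 9 myeloid markers 5, with sums of 51.5 and 64.1 CPM. Of 8 erythroid and megakaryocyte markers 1, ITGA2B, had one, with 2.11 and 5.22 CPM at an alternative start. CD3E was at 0 counts in both libraries, CD3D, CD3G, CD14, CSF3R, ELANE, S100A8, KLF1 and HBA1 had no promoter peak, whereas CEBPA and GATA3 were strong. Accessible promoters are not expression, and whether a few cells of another kind contributed was not tested.

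**Figure D3:**
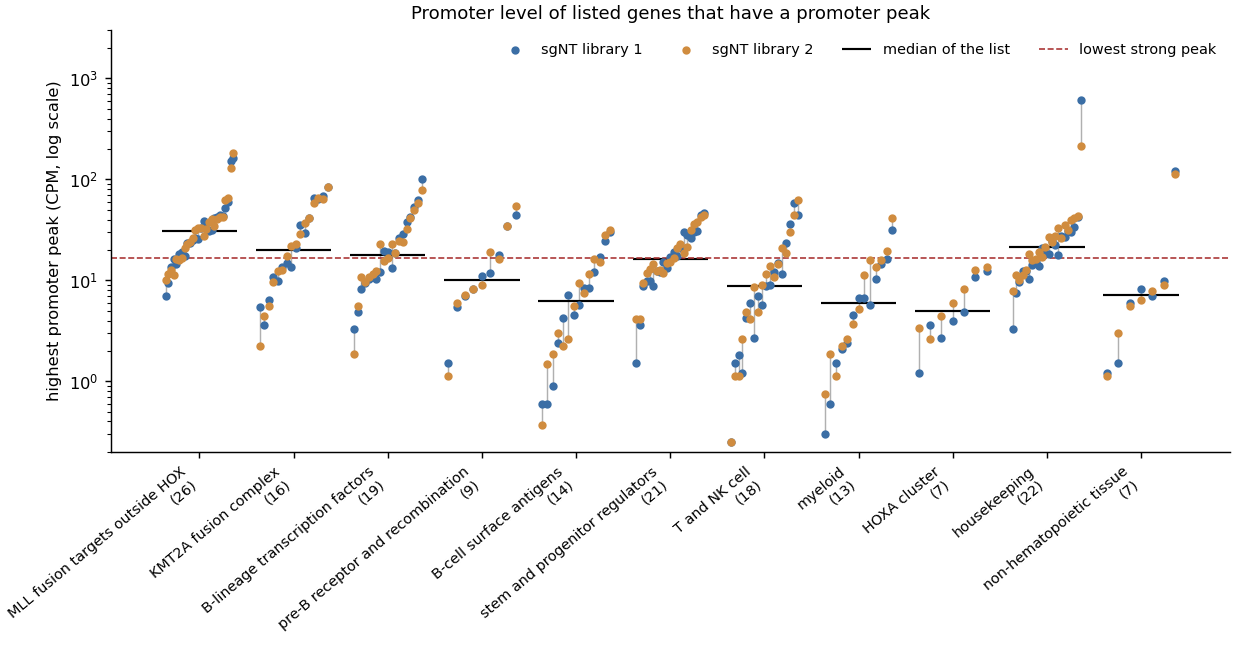
Level of the highest promoter peak of each listed gene that has a promoter peak, in CPM on a log axis, for sgNT library 1 (blue) and 2 (orange) joined by a line, with the median of the list (black) and the lowest strong level, 16.7 CPM (dashed). CD3E, at 0 counts, is drawn at the bottom. The medians were 31.1 CPM for MLL fusion targets, 17.9 CPM for B-lineage transcription factors, 5.92 CPM for myeloid genes and 4.94 CPM for the HOXA cluster.

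Of 25 regulators of stem and progenitor cells 10 were strong (40%, against 33.8% of all coding genes) and 11 open. The other 4 had no promoter peak (16%, against 36.1%), among them GATA2, TAL1 and TEK. The median of those with a peak was 16.2 CPM, against 17.8 CPM over all coding genes with a promoter peak. GFI1, a repressor of early hematopoiesis, had 46.1 and 43.97 CPM and MYC 30.1 and 36.5 CPM, and MEF2C and RUNX1 are in this list too. KIT, the stem cell factor receptor, was the lowest open member with 1.51 and 4.10 CPM, and LIN28B the next with 3.61 and 4.10 CPM. A distal peak of 69.5 CPM was nearest to KIT, against 2.80 CPM at its promoter.

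Genes of other lineages were mixed. In the myeloid list 2 of 28 were strong, 8 open, 3 faint and 15 without a promoter peak, 3 of them in stretches without peaks. The shares were 7.14% strong and 53.6% without a peak, against 33.8% and 36.1% of all coding genes. CEBPA, the master factor of granulocytes, had 31.6 and 41.7 CPM and its relatives CEBPB and CEBPE 16.3 and 19.8 CPM and 14.5 and 16.02 CPM, and SPI1 (PU.1) had 10.2 and 13.4 CPM. The effectors AZU1, CD14, CD33, CSF3R, ELANE and FCER1G had no promoter peak, nor did CEBPD and CSF2RA, the latter in a stretch without peaks. ITGAX (2.11 and 2.236 CPM) and CLEC7A (2.41 and 2.61 CPM) were the lowest open members.

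Among 30 T and NK cell genes 4 were strong, 11 open, 3 faint and 12 without a promoter peak. Strong genes were 13.3% of the list, against 33.8% of all coding genes. The 40% without a promoter peak were close to the 36.1% of all coding genes. TCF7, a factor of T cell progenitors, had 44.6 and 62.6 CPM over 1017 bp, GATA3 36.1 and 30.2 CPM and the costimulator CD28 23.2 and 18.6 CPM. Counting canonical starts alone left 1 strong gene, CD28, since TCF7 then had 12.2 CPM and GATA3 4.91 CPM. IL2RB (1.204 and 2.61 CPM) and ZAP70 (4.22 and 4.84 CPM) were the lowest open members. The receptor chains CD3D and CD3G and the antigens CD2, CD4, CD5, CD7 and CD8B had no promoter peak, nor had GZMB.

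In the erythroid and megakaryocyte list 3 of 22 were strong, 3 open, 1 faint and 15 without a promoter peak. Here 13.6% were strong and 68.2% without a peak, against 33.8% and 36.1% of all coding genes. The globin genes HBB, with 49.4 and 39.1 CPM over a peak of 1221 bp, and HBD, with 35.8 and 25.0 CPM, were strong, whereas HBA1 and the erythroid factors GATA1 and KLF1 had no promoter peak, GATA1 in a stretch without peaks. TFRC, the transferrin receptor, had 18.4 and 26.8 CPM, and ITGA2B, NFE2 (2.71 and 3.35 CPM) and GP9 (3.31 and 3.35 CPM) were open. AHSP, ALAS2, EPOR, GP1BA and GYPB had none.

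Receptors for growth factors and cytokines included 8 strong of 24, 10 open, 1 faint and 5 without a promoter peak. The strong share of 33.3% was close to the 33.8% of all coding genes, and 20.8% lacked a promoter peak, against 36.1%. After FLT3 came TGFBR2 (46.4 and 41.4 CPM), the interferon gamma receptor IFNGR1 (27.7 and 34.7 CPM) and IGF1R (27.4 and 26.8 CPM). CSF2RB (1.81 and 2.61 CPM) and KIT were the lowest open receptors, and EGFR, EPOR and IL2RA had no promoter peak. CRLF2 and IL3RA lie in a stretch without peaks and were not measured.

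Reference lists at both ends of the scale framed these counts. Of 25 housekeeping genes 13 were strong (52%, against 33.8% of all coding genes) and 9 open. The 3 without a promoter peak (12%, against 36.1%) all lay in stretches without peaks. After EEF1A1 came YWHAZ (42.5 and 43.6 CPM), LDHA (33.4 and 41.0 CPM) and VCP (29.8 and 39.5 CPM), and the lowest were PSMB2 (3.31 and 7.83 CPM) and RPL13A (7.53 and 11.2 CPM). Of 36 genes of non-hematopoietic tissues 1 was strong (2.78%, against 33.8%), 5 open and 1 faint. The other 29 had no promoter peak (80.6%, against 36.1%), among them ALB, APOA1, ACTA1, CDX2, COL2A1, CRYAA, DES and FGB. The strong one was PAX6, a factor of eye and brain development, with 122 and 112 CPM, which per kb was 241 CPM and thus above FLT3. NEUROG2 (9.94 and 8.94 CPM), COL1A1 (6.92 and 7.83 CPM) and TTR (8.13 and 6.34 CPM) followed, and SOX2 (6.02 and 5.59 CPM) and APOB (1.51 and 2.98 CPM) were the lowest open members. The peak of TTR lay at an alternative start, and its canonical start had none.

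Distal peaks were then joined into clusters wherever neighbours lay no farther apart than the distance usual for joining enhancers into super-enhancers, which gave 58530 clusters with a median of 4.75 CPM in sum. The 585 clusters of the top 1% held 10.99% of the distal level, and 26 clusters exceeded 200 CPM. The highest sum of the genome belonged to a cluster in PAN3, upstream of FLT3, at chr13:28788101-28856897, with 422 and 490 CPM over 24 peaks, 9 of them strong. All 24 peaks lay in introns of PAN3, between 113 and 182 kb from the FLT3 start. The strongest, chr13:28842815-28843351, had 114 and 130 CPM (122 ± 11.8, SD, n = 2), lay 168 kb from the FLT3 start and overlapped a HOXA9-bound region, and it is the PAN3 sequence shown above. It held rank 20 among all distal peaks by CPM and rank 23 per kb of peak, with 227 CPM per kb against 199 CPM per kb at the FLT3 promoter. The next, at 139 kb, had 36.7 and 42.9 CPM. With peaks joined at 5 kb the cluster split, and its largest piece had 265 CPM and rank 2.

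**Figure D4:**
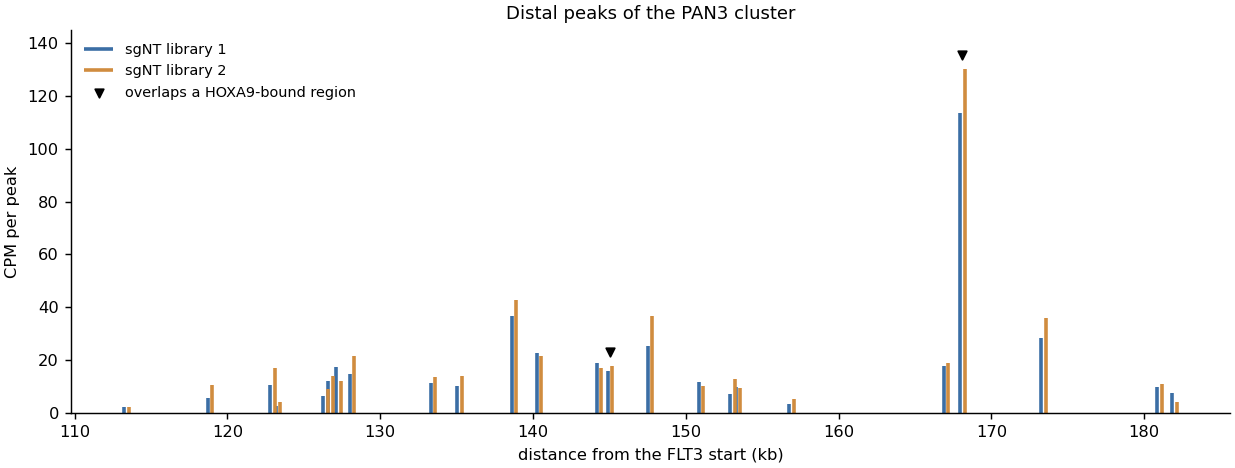
CPM of each of the 24 distal peaks of the PAN3 cluster in sgNT library 1 (blue) and 2 (orange) by distance from the FLT3 start in kb; triangles mark peaks that overlap a HOXA9-bound region. The peak at 168 kb stands at 114 and 130 CPM, and the next highest, at 139 kb, at 36.7 and 42.9 CPM.

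The other clusters with the highest sums lay near genes of diverse function. A cluster on the X chromosome, nearest to STK26 at 192 kb, had 448 and 382 CPM over 31 peaks, one at PRSS12 431 and 396 CPM over 34 and one at ANXA2R 409 and 391 CPM over 31. A cluster of 5 peaks with 355 and 266 CPM owed 259 CPM of its mean sum to 1 peak at the start of FAM86DP, a pseudogene of a family with near-identical copies, so its level is uncertain. Clusters at UBASH3B (279 and 311 CPM), a phosphatase that damps antigen receptor signals, at TMSB10 and TRABD2A (287 and 287 CPM) and at DAD1 (224 and 313 CPM), in the T cell receptor alpha and delta region, followed. TSPAN14 (274 and 260 CPM) and JMJD1C with REEP3 (249 and 275 CPM) closed the 10. Within the 10, the DAD1 cluster differed most between libraries with library 2 the higher.

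Several MLL targets had large distal clusters too, here named after they had been seen. The best cluster of MEF2C had rank 13 with 262 and 230 CPM over 11 peaks, that of CDK6 rank 17 with 220 and 236 CPM over 35, that of GNAQ rank 22 with 188 and 233 CPM and that of BCL2 rank 25 with 201 and 205 CPM. Of the B-lineage factors, the best cluster of PAX5 had rank 93 with 134 and 161 CPM, and its strongest peak of 59.6 CPM lay 1.83 kb from a PAX5 start. A nearest start is a position and not a known target.

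By number, distal peaks were most frequent near genes in gene-poor regions. PCDH7, a protocadherin, had 172 of them, TENM3 165, PTPRD 160, FLRT2 148 and AUTS2 146, against a median of 2 per coding gene. FLRT2 had no promoter peak and PCDH7 had 6.22 CPM there. Of the listed MLL targets, ZEB2 had 102 distal peaks and MEF2C 97, and the 26 targets had a median of 37.5.

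The single strongest distal peaks were mostly far from coding starts. After the FAM86DP peak with 296 and 222 CPM came one 1.23 kb from a start of SGCE, an imprinted gene (173 and 138 CPM). One 3.04 kb from a start of ZNF736 had 163 and 132 CPM. A peak 175 kb from PDGFD had 164 and 131 CPM, one 96.8 kb from SERTAD2 131 and 154 CPM and one 259 kb from VGLL3 158 and 122 CPM. One 100 kb from WDSUB1 had 138 and 139 CPM, and one 160 kb from GAP43 155 and 120 CPM. None of these 8 was nearest to a listed gene.

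HOXA9-bound regions were among the accessible sites. The study listed 229 regions bound by a tagged HOXA9 that was expressed from an introduced construct in SEM cells, of which positions alone were used here. Of these 220 overlapped at least 1 of 230 consensus peaks, 220 of which were distal. Of the 220 distal peaks 119 were strong (54.1%), against 6.09% of all distal peaks. Their median level was 17.5 and 19.4 CPM, and over 3 counts were found in both libraries at 216. They were also longer, with a median of 371 bp against 171 bp, and per kb the medians were 51.8 and 17.0 CPM. These are descriptions of the list, and the difference was not tested.

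The strongest HOXA9-bound peak lay 41.9 kb from IL21 with 135 and 117 CPM, followed by the PAN3 peak. One at the CHD1 promoter had 124 and 99.9 CPM, and one 16.5 kb from OPRK1 98.5 and 93.5 CPM. The CDK6 peak whose sequence is shown above was bound as well and had 50.3 and 47.3 CPM. The small HOXA9 promoter peak itself overlapped a bound region.

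Letters of known factors differed between promoters and distal peaks and along the level of distal peaks. Both strands of the 200 bases about the middle of each peak were searched for fixed letters, so that a match is a description and not a site. Matches of different factors may overlap. The ETS and PU.1 letters share the run GGAAGT but differ before it, so the same run cannot match both. The window was wider than the median distal peak of 171 bp, so it often reached beyond a peak. SP/KLF letters (GGGCGGGG) were found in 23.5% of promoter and 1.57% of distal peaks, and ETS letters in their GC-rich form (CCGGAAGT) in 3.88% and 0.315%. CTCF letters (AGGNGGCGC) stood in 5.63% and 1.49%, and the letters of NRF1 (GCGCATGCG) in 1.70% and 0.0682%. RUNX letters (TGTGGTT) ran the other way, with 4.20% of promoter and 15.97% of distal peaks, as did AP-1 letters (TGANTCA) with 4.37% and 13.1% and GATA letters (AGATAAG) with 0.808% and 2.85%. CCAAT, the letters of NFY, stood in 22.1% and 22.4%, and in 31.8% of strong promoter peaks.

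Within distal peaks RUNX letters were more frequent where the level was higher, with 12.97% in the lowest 10% by mean CPM and 22.3% in the highest, and stood in 28.2% of the 220 HOXA9-bound peaks. Over all peaks the share was 14.2%. From the lowest to the highest 10%, EBF letters (CCCNNGGGA, 6.34% of all peaks) went from 4.70 to 8.10%, the E-box CAGCTG (14.3%) from 13.8 to 17.2% and AP-1 letters (11.8%) from 11.4 to 15.04%. The related E-box CACCTG (11.6% of all peaks), which ZEB repressors also bind, went down from 12.0 to 8.87%. PU.1 letters (GAGGAAGT, 5.38%) stood in 5.86 and 6.17%, MEF2 letters (CTAAAAATA, 1.45%) in 1.61 and 1.47% and octamer letters (ATGCAAAT, 1.45%) in 1.78 and 1.09%. C/EBP letters (TTGCNNAA, 10.8%) stood in 10.6 and 11.9% and YY1 letters (AAGATGGCG, 0.296%) in 0.0168 and 0.0926%. HOX-PBX letters (TGATTTAT, 1.16% of all peaks) were rare at 1.39 and 1.29%, and stood in 6 of the 220 HOXA9-bound peaks (2.73%). Base content went with the level too, from a median of 1.83 CPM at distal peaks with a GC content under 35% to 8.01 CPM at 75% or more. Peak length did as well, with a median of 93 bp in the lowest 10% of all peaks and 416 bp in the highest. Windows of weak peaks thus held more bases from outside the peak. The part of base content and of length in these shares was not tested.

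**Figure D5:**
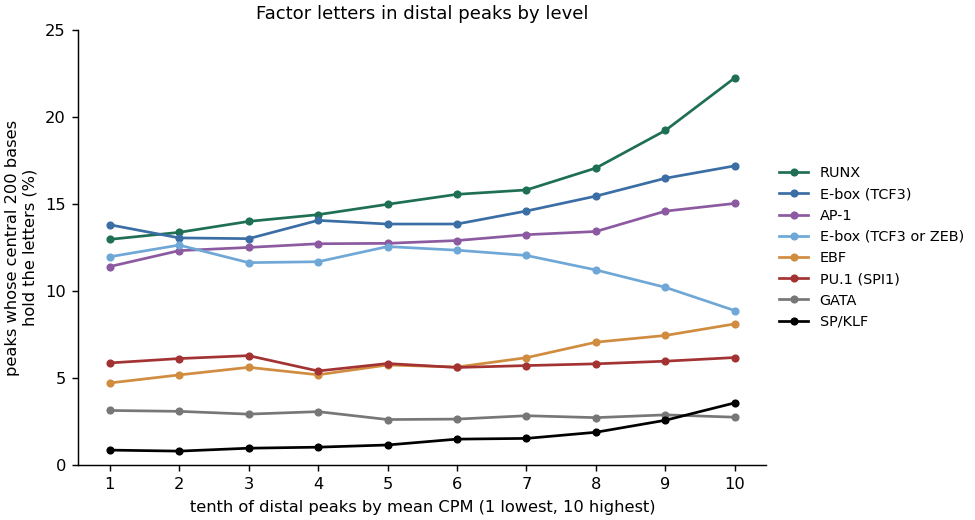
Share of distal peaks, in percent, with the letters of each factor in the 200 bases about the peak middle, by decile of the mean CPM from lowest to highest. This window often reached beyond the shorter, weaker peaks. RUNX letters went from 12.97 to 22.3%, and the E-box letters CACCTG (TCF3 or ZEB) went down from 12.0 to 8.87%.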

How the data were processed

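ATAC-seq was made from SEM cells with dCas9-KRAB, and the 2 sgNT libraries were taken by their labels. The authors deposited raw counts, 1 value per peak and library, and the positions of these peaks on hg19. The sources differ on the mapping. BWA, MACS2 2.1.1.20160309, SAMtools 1.2, Trim Galore 0.4.4 with cutadapt, and bedtools 2.24.0 are in the submitters' notes, whereas the protocol and main methods name other tools. Which fragments were counted and any shift for the transposase offset are not given in the sources used here. Peaks were called over both guides, so some may be absent from sgNT cells. The start and end of each peak are other deposited values.

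Counts were scaled to CPM by the total in peaks (Python 3.11.15, pandas 2.3.3, pysam 0.24.0). Coding starts came from GENCODE 44 lifted to GRCh37. Levels, states and clusters were checked on simulated data. Everything is a description, and no test was made. Members and 16 lists of 315 genes (314 found) were chosen with earlier results of these data known. Named are the 8 strongest promoter and distal peaks, the 10 highest clusters, the 5 genes with most distal peaks, the 5 strongest HOXA9-bound peaks, every HOX gene, and per list the 4 highest, the 2 lowest open and up to 8 closed members, except for a few items that are not reported here. Alternatives were each library alone, TMM scaling (edgeR 4.0.16, R 4.3.3), other promoter windows and starts, CPM per kb, a stricter limit for strong and a low-count filter. Leaving out genes in stretches without peaks was added after the data had been seen.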

Additional observations from a re-analysis of the deposited data

How the results depend on the processing

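Each library alone and TMM scaling kept every count over coding genes and distal peaks within 1.5 times; the share of counts at promoters ran from 36.1 to 36.7% and the promoter to distal ratio of medians from 3.22 to 3.25 over the single libraries. Windows of 500 bp and 2 kb and canonical starts gave 34.2, 38.5 and 32.8% of counts and 12.9, 17.3 and 12.3% of peaks at promoters. With a mean count of at least 10, promoters were 24.4% of peaks, the medians 12.54 and 6.62 CPM and their ratio 1.89, and per kb the ratio was 2.11. In the top 5% of peaks 4291 genes were strong, of the listed genes 48 in place of 81, and 2920 distal peaks in place of 7243. In a window of 100 bases the median GC content of distal peaks was 47.0%, and RUNX letters stood in 11.1% of all and 13.4% of strong distal peaks. Over the lists, 238 of 256 recomputed counts stayed within 1.5 times. Counts of genes without a promoter peak, over lists and over all coding genes, rest on peak positions. They could therefore not change with a single library or TMM scaling. In library 1 alone 1 myeloid gene was strong in place of 2. Leaving out genes in stretches without peaks lowered closed genes from 7134 to 6003. No paired analysis was possible because 1 group was described. Depth limits weak peaks: 3 counts were 0.903 and 1.12 CPM.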

Other observations

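Levels also differed between chromosomes. The median promoter level was highest on chromosome 6 (12.0 and 13.04 CPM), chromosome 4 (13.2 and 12.3 CPM) and chromosome 5 (11.4 and 12.3 CPM), against 9.07 CPM over all promoters, and lowest on chromosome 17 (5.42 and 7.08 CPM), chromosome 22 (6.02 and 7.45 CPM) and chromosome 19 (6.02 and 7.83 CPM). Distal medians differed less, from 2.51 CPM on chromosome 13 to 2.996 CPM on chromosome 8. Copy number was not measured.

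Library 2 stood above library 1 at the typical peak of chromosomes 19 (1.34-fold), 17 (1.32-fold) and 22 (1.32-fold) and below it on chromosomes X (0.906-fold) and 4 (0.909-fold). Over distal peaks the median ratio of library 2 to library 1 ran from 0.934 at a GC content under 35% to 1.18 at 65 to 75%. The part of base content in the chromosome values was not tested.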
